A study of Mus musculus with 18 samples.

Results

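Translation efficiency (TE) compares how many ribosomes a transcript carries with how much of that transcript there is. In primary mouse astrocytes exposed to inflammatory cytokines for 48 h, the TE change of 12205 genes was described here, which is every gene of the authors' deposited table of log2 values. The study holds 18 libraries, and the 48 h comparison rests on 12 of them. These are RNA-seq and ribosome footprint libraries from cells treated for 48 h and from untreated cells, with 3 batches (A, B and C) in each of the 4 groups. All groups were wild-type C57BL astrocytes from newborn mice (P0-P2) of pooled sex, thawed and grown in a commercial astrocyte medium.

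Treated cells were cultured for 72 h and then exposed for another 48 h to TNFα at 20 ng/ml and IL-1β at 0.25 ng/ml, while untreated cells were cultured for 120 h. Both kinds of culture were therefore harvested at the same age, and every lysate contained cycloheximide, which stalls elongating ribosomes of the cytoplasm. TNFα and IL-1β are cytokines that microglia release in inflamed brain, and both signal to astrocytes largely through NF-kB. In ribosome profiling, RNase I digests the mRNA that no ribosome covers, and the protected fragments (26 to 34 nt here) are sequenced. A TE value above 0 means that footprints were higher, relative to RNA, in treated than in untreated cells. It does not say whether initiation, elongation or pausing differed.

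Each gene has 1 deposited log2 value per comparison, with no value per library, so no spread between batches, standard error, test or depth could be given for any value. Size alone therefore decides what is called here: a gene counts as higher where its log2 value reaches 1 and as lower where it reaches -1, a difference of 2-fold. Levels are not in the table, so the astrocyte label could not be checked by marker level. Lists of genes are described by their counts and median beside those of all genes. Bulk values do not separate fewer cells of a type from less RNA per cell.

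The TE column carried no scale in its header and was checked against the other columns. TE at 48 h lay within 0.1 of the footprint value minus the RNA value in 78.0% of genes (9515 of 12205), so it was read as log2. It lay within 0.5 in 98.5%. The deviation was more frequent where the other readouts were far from 0: of the 2668 genes past 1 in RNA or footprints, 4.57% were off by over 0.5, against 0.671% of the other 9537 genes. In the 557 genes past 1 in TE, 225 lay within 0.1 of the difference, and 0 had the opposite sign. Genes named below for which TE passes 1 but footprint minus RNA does not include Mrps34 (0.78), Ndufa13 (0.97), Rps4l (0.89), Ccl17 (0.43), Tmem119 (0.72) and Fau (-0.68), computed from the authors' deposited table. They also include mt-Nd6 (-0.91), mt-Rnr1 (-0.94), Mrto4 (-0.60), Mvd and Tubb3, computed from the authors' deposited table. TE also lies over 0.25 from that difference for Cxcl9, Cxcl2, Ccl20, Mx1, Oas3, Acod1, Csf3, Adgre1, Mmp9, Mmp12, Cenpm, Hist1h2be, Uqcr11, Atp5d and Atp5g2. Because TE is built from the RNA value, an error in RNA enters TE with the opposite sign, and relations between TE and RNA below are partly fixed by that construction.

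TE differed far less than RNA or footprints did. At 48 h 348 genes were higher in TE (2.85%) and 209 were lower (1.71%), together 557 (4.56%). RNA was higher for 990 genes (8.11%) and lower for 1259 (10.3%), and footprints were higher for 992 (8.13%) and lower for 1063 (8.71%). The median TE of all genes was -0.05, with quartiles of -0.32 and 0.29, and 73.6% of genes lay within 0.5 of 0. TE lay above 0 in 45.8% of genes (5586 of 12205) and below 0 in 6619. The standard deviation over genes was 0.51 in TE, against 1.20 in RNA and 1.11 in footprints. At 24 h, compared with the same untreated libraries, 219 genes were higher (1.79%) and 161 lower (1.32%) in TE, together 3.11%.

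By number, higher TE came most often with readouts that each stayed within 1, and lower TE about as often with higher RNA as with RNA within 1. By share, both were more frequent among genes with RNA past 1. TE was higher in 7.78% of genes with lower RNA, 3.43% of those with higher RNA and 2.17% of those with RNA within 1. TE was lower in 9.09% of genes with higher RNA, 2.46% of those with lower RNA and 0.884% of those with RNA within 1. Of the 348 genes higher in TE, 178 (51.1%) had neither RNA nor footprints past 1, beside 9537 of all 12205 genes. Another 98 had lower RNA, and in 76 of these footprints stayed within 1. In 38 genes footprints alone were higher, and in 34 both readouts were. Of the 209 genes lower in TE, 90 had higher RNA, of which 63 also had higher footprints, and 88 had RNA within 1. Of these 88, 63 (30.1% of the 209) had neither readout past 1 and 25 had only footprints lower. The other 31 of the 209 had both readouts lower.

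Genes with the highest RNA values had the lowest median TE of the RNA classes. In the 118 genes with an RNA value over 5 the median RNA value was 6.68 and the median footprint value 5.74, and the median TE was -0.94, with quartiles of -1.72 and -0.32. TE lay below 0 in 101 of them, and 55 (46.6%) were lower by at least 1, against 1.71% of all genes. Genes with RNA between 2 and 5 had a median TE of -0.21 (359 genes), those between 0.5 and 1 a median of -0.19 (1026 genes), and those within 0.5 of 0 a median of -0.07 (7408 genes). On the other side of 0, the 1522 genes with RNA between -1 and -0.5 had the highest median TE, 0.25, with 7.36% called higher. Below -2 in RNA the median was 0.07 (332 genes).

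**Figure D1:**
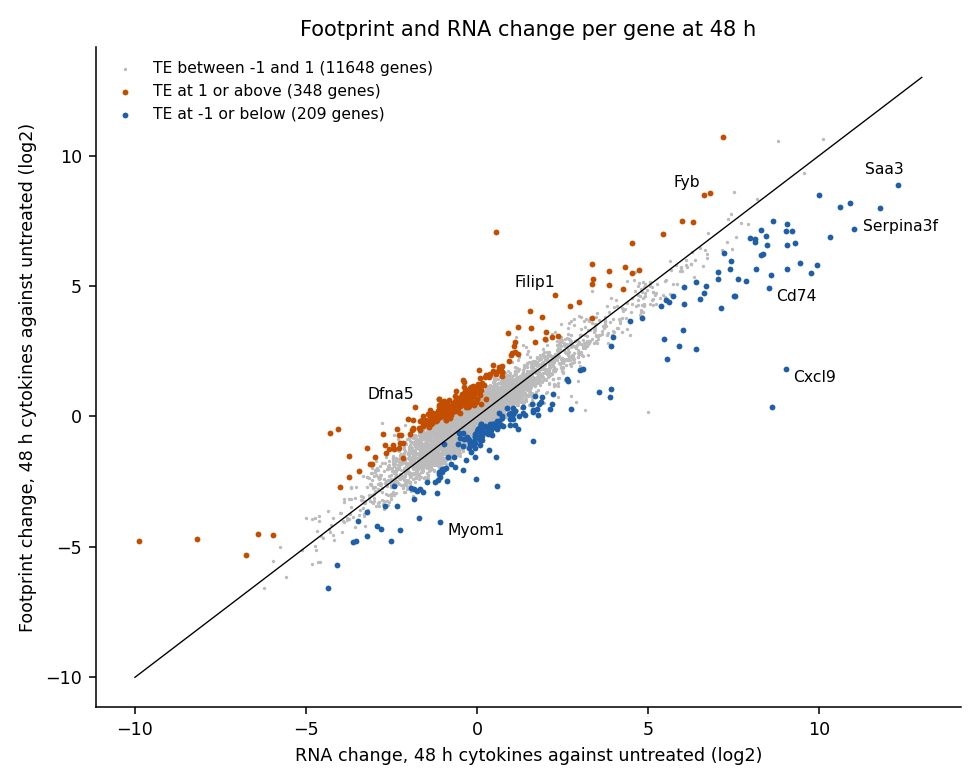
Footprint change (vertical axis, log2) against RNA change (horizontal axis, log2) at 48 h relative to untreated cells, 1 point per gene, with the line where both are equal. Orange points mark the 348 genes higher in TE and blue points the 209 lower; at the right end, where RNA lies over 5, 55 of 118 genes were lower in TE.

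The highest TE values came from genes of several kinds, from a cytoskeletal binder to a signalling kinase. They are given for genes whose 3 values add up within 0.1. Filip1, which codes for a filamin-binding protein, led with 2.28 in RNA, 4.67 in footprints and 2.36 in TE in the authors' deposited table. Dfna5, the gene of the pore-forming gasdermin E, had -1.80 in RNA but 0.36 in footprints, a TE value of 2.22 in the authors' deposited table. For the kinase gene Map3k14 (NIK, the activator of non-canonical NF-kB signalling) the authors' deposited table had -0.38 in RNA, 1.31 in footprints and 1.78 in TE. These 3 genes had TE values of 2.40, 1.72 and 1.49 at 24 h in the authors' deposited table.

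Other genes at this end differed in how they got there. The adaptor gene Fyb was strongly higher in both readouts, at 6.65 in RNA and 8.49 in footprints, with a TE value of 1.79 in the authors' deposited table. Pgls, the gene of a pentose phosphate pathway enzyme, had -1.12 in RNA and 0.66 in footprints, with 1.81 in TE, and Ccdc85b had -2.03, -0.09 and 1.92 in the authors' deposited table. Gm1673 (1.95), the MOB family gene Mob3a (1.89) and the forkhead factor gene Foxs1 (1.73) also stood at this end in TE in the authors' deposited table. On GRCm38.p6 Filip1 spans chromosome 9 from 79805018 to 80012851, and Map3k14 chromosome 11 from 103219764 to 103267401.

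Among the 10 lowest, 8 were inflammatory genes whose RNA was far higher. Serpina3f, a protease inhibitor gene, had 11.03 in RNA, 7.20 in footprints and -3.92 in TE in the authors' deposited table. The invariant chain gene Cd74, which serves MHC class II, had 8.53, 4.94 and -3.62, and the acute phase gene Saa3 had 12.29, 8.88 and -3.33 in the authors' deposited table. Footprints of all 3 genes were thus many-fold higher in treated cells, and lower TE went with more, not fewer, ribosome footprints. The chemokine genes Ccl5 (-2.68), Cxcl5 (-2.65) and Ccl7 (-2.15), the endotoxin-degrading enzyme gene Aoah (-2.41) and the calgranulin gene S100a8 (-1.85) followed in TE in the authors' deposited table. The 2 exceptions were lower in RNA as well: the sarcomere gene Myom1 at -1.07 in RNA, -4.06 in footprints and -3.06 in TE, and the thyroid hormone transporter gene Slco1c1 at -2.51, -4.76 and -2.23 in the authors' deposited table. Serpina3f spans chromosome 12 from 104214544 to 104221129, and Saa3 chromosome 7 from 46711998 to 46719615, on GRCm38.p6. Members of the Serpina3, H2 and Gbp families have near-identical copies, and how reads shared by copies were counted was not given in the sources used here.

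Some genes were past 1 in TE with RNA near 0. Of 2868 genes with RNA within 0.2 of 0 and values that add up within 0.1, 15 were higher in TE and 3 lower, beside 2.85% and 1.71% of all genes. The demand that values add up by itself brings the calls over all genes to 173 higher and 52 lower. Rac3, a small GTPase gene, had 0.08 in RNA, 1.48 in footprints and 1.43 in TE in the authors' deposited table. Srm, the gene of spermidine synthase in the polyamine pathway, followed with -0.12, 1.15 and 1.26, and the pro-apoptotic Bax with -0.09, 1.12 and 1.22 in the authors' deposited table. The stress cytokine gene Gdf15 reached 1.20 and the peroxisomal thiolase gene Acaa1a 1.16 in TE in the authors' deposited table. The 3 lower genes were Hps3, which serves lysosome-related organelles (-1.57), the receptor phosphatase gene Ptprq (-1.25) and the transcription factor gene Zeb1, which only just reached -1, in the authors' deposited table. At 24 h TE was 1.14 for Rac3, 1.08 for Srm, 0.62 for Gdf15, -1.64 for Hps3 and -1.06 for Zeb1 in the authors' deposited table.

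Ribosomal protein mRNAs are the classic example of translational control. Most begin with a C followed by a run of pyrimidines, the 5' terminal oligopyrimidine (TOP) motif. When mTOR is inactive, the protein LARP1 binds these starts and holds the mRNAs off ribosomes, and active mTOR releases them. RefSeq start windows of 8 ribosomal protein genes are printed to show what such starts look like in genes at both ends of the TE range. Each runs from 10 bases before to 20 bases from the annotated start on, and capitals mark the unbroken pyrimidine run that begins at that start. They were the 4 highest and 4 lowest in TE among genes with a single start window and such a run, highest first.
Rplp2: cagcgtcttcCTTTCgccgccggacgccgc
Rps10: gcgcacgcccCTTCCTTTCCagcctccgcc
Rpl28: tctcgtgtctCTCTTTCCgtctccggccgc
Rpl14: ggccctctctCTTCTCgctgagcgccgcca
Rps27: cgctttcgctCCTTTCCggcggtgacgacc
Rps15a: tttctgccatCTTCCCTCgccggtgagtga
Rps6: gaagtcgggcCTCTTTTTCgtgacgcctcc
Fau: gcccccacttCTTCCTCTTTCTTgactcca

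The windows lie, on GRCm38.p6, at chr7:141447641-141447670 (plus strand) for Rplp2 and chr17:27635225-27635254 (minus) for Rps10. Those of Rpl28 and Rpl14 are chr7:4792955-4792984 (plus) and chr9:120571507-120571536 (plus). Those of Rps27 and Rps15a are chr3:90213629-90213658 (minus) and chr7:118116128-118116157 (minus). Those of Rps6 and Fau are chr4:86857348-86857377 (minus) and chr19:6057937-6057966 (plus). The TE values at 48 h, in the order printed, were 1.15, 1.11, 0.76, 0.37, -0.18, -0.62, -0.68 and -1.01 in the authors' deposited table. The runs, in the same order, had 5, 10, 8, 6, 7, 8, 9 and 13 bases. These 8 genes were chosen by their TE values, so no relation of run length to TE is read from them.

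The TE medians of ribosomal protein genes at 48 h lay slightly above that of all genes and slightly below that of short genes. The 33 small subunit genes had a median TE of 0.10 and the 46 large subunit genes one of 0.12, against -0.05 for all genes. Together, 8 of the 79 were higher by at least 1 and 2 lower, beside 2.85% and 1.71% of all genes. TE lay above 0 in 45 of the 79, beside 45.8% of all genes. Small subunit genes had a median of 0.54 at 24 h and large subunit genes one of 0.50. TE was lower at 48 h than at 24 h in 71 of the 79, beside 5898 of all 12205 genes. Both times share their untreated libraries. Over genes whose values add up within 0.1, the small subunit median was 0.22 at 48 h. The median span was 2693 bp for small and 3179 bp for large subunit genes. The fifth of coding genes with the shortest spans, up to 9217 bp, had a median TE of 0.17 at 48 h, with 6.93% higher. The part of gene span in the ribosomal protein medians was not tested.

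Within the family TE was higher where RNA was lower, while the footprint medians lay close together. The 23 genes with RNA below 0 had a median TE of 0.76, with 22 above 0. In the 27 genes with RNA of 0.5 or more the median was -0.30, with 4 above 0, and the 29 genes in between had a median of 0.19. The footprint medians of these 3 classes were 0.34, 0.40 and 0.39. Over the 79 genes the standard deviation was 0.35 in footprints, 0.46 in RNA and 0.60 in TE. TE contains the RNA value by construction, so this order is partly fixed.

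Individual members show both ends. Rps10, of the small subunit, had -0.16 in RNA, 1.00 in footprints and 1.11 in TE in the authors' deposited table. The stalk protein gene Rplp2 had -0.65 in RNA and 0.59 in footprints, with 1.15 in TE, and Rpl37a had -0.05, 0.99 and 1.16 in the authors' deposited table. Rps4l, which RefSeq types as a transcribed pseudogene, had the highest TE value of the list, with -0.60 in RNA, 0.29 in footprints and 1.41 in TE, values that do not add up, in the authors' deposited table. At the other end Rpl13a, also known for a role in silencing inflammatory mRNAs, had 1.12 in RNA, -0.32 in footprints and -1.54 in TE in the authors' deposited table. Fau, whose product is cleaved into a small subunit protein and a ubiquitin-like peptide, had -0.06, -0.74 and -1.01 in the authors' deposited table. Rps6, the target of S6 kinases, lay at 0.69, 0.14 and -0.68, and Rpsa, the laminin receptor protein of the small subunit, at 0.02, 0.55 and 0.53 in the authors' deposited table. Many of these genes have processed pseudogenes that can share reads.

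**Figure D2:**
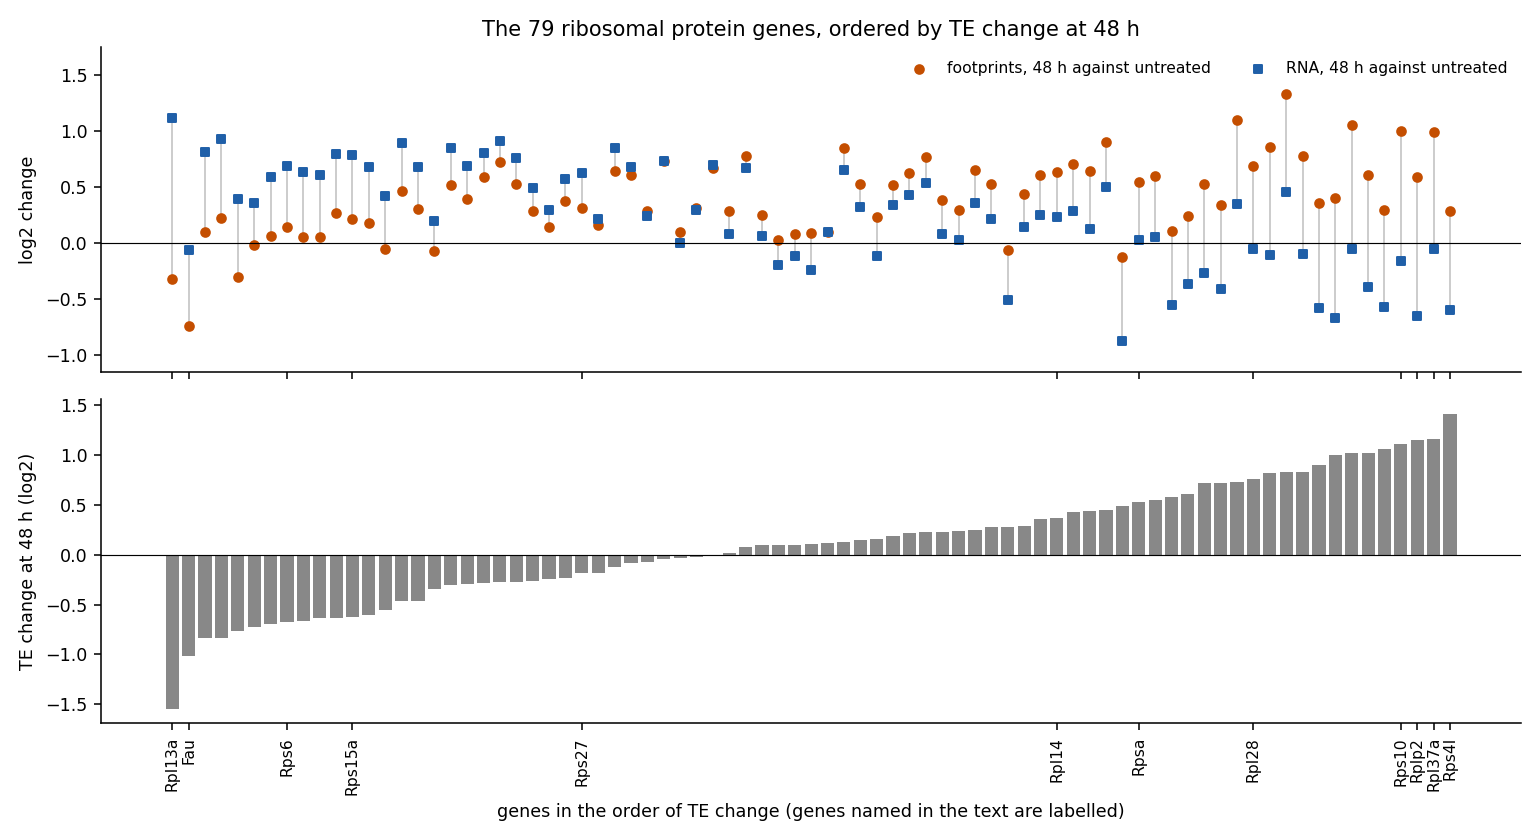
The 79 ribosomal protein genes ordered by TE change at 48 h against untreated (log2): footprint (orange circles) and RNA change (blue squares) above, TE change as bars below. Footprints stay in a narrow band (SD 0.35 over genes) while the RNA squares descend as TE ascends, down to Rpl13a at -1.54 and up to Rps4l, a transcribed pseudogene in RefSeq, at 1.41 in TE.

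Genes with and without a pyrimidine run at the annotated start had TE medians close to each other. The run was searched on the gene's own strand as a C followed by at least 4 bases that are C or T. It began at the annotated start in 2.51% of all 32851 RefSeq start windows and in 274 of the 9609 protein-coding genes that have a window here (2.85%). Genes with the run had a median TE of -0.06 and those without it -0.04. Of the 58 ribosomal protein genes with a window, 14 (24.1%) had the run, and their median TE was 0.05, against 0.14 in the 44 without it. Starts within 10 bases on either side brought the share to 62.1% of ribosomal protein genes and 37.0% of coding genes. Annotated starts can miss the start used in these cells, so a window without the run says nothing about the transcript.

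The other TOP mRNAs of the translation machinery held 19 measured genes with a median TE of -0.07, and 0 of them passed 1 in either direction. The highest was the elongation factor subunit gene Eef1d at 0.72, while Tpt1, a TOP mRNA for the translationally controlled tumour protein, had 0.68 in RNA, -0.25 in footprints and -0.98 in TE in the authors' deposited table. The poly(A)-binding protein gene Pabpc1 lay at 1.16, 0.59 and -0.62, and the elongation factor genes Eef1a1 and Eef2 at -0.34 and 0.20 in TE in the authors' deposited table. The median of this list at 24 h was 0.17. Other initiation, elongation and release factors (37 genes) had a median of -0.16, and 1 passed 1, the initiation factor subunit gene Eif3i at 1.04 in the authors' deposited table. The cap-binding protein gene Eif4e lay at -0.55 and Eif3c at -0.76 in the authors' deposited table.

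Genes of the pathways that control translation stayed within 1 in TE. The mTOR pathway and the cap-binding repressors (18 genes) had a median of 0.20, with the 4E-BP gene Eif4ebp2 at 0.83 and the mTORC1 inhibitor gene Akt1s1 at 0.69 in the authors' deposited table. The second control point is phosphorylation of eIF2, which lowers general initiation and lets mRNAs with upstream reading frames through. The 12 genes of eIF2 kinases and upstream reading frame mRNAs had a median of -0.14 and 0 past 1. Atf4, the transcription factor whose mRNA is the best known example, had 0.84 in RNA, 1.03 in footprints and 0.16 in TE, against 0.70 in TE at 24 h in the authors' deposited table. Ddit3 (CHOP) had -0.24 and the phosphatase subunit gene Ppp1r15a 0.03 in TE in the authors' deposited table.

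Smaller groups with known translational control are given next. In 6 of 7 listed mRNAs with an iron-responsive element, which repressor proteins bind when iron is low, the median was 0.05. The ferritin light chain gene Ftl1 was the only one past 1, with -0.45 in RNA, 0.82 in footprints and 1.25 in TE, while the heavy chain gene Fth1 had 1.84, 2.24 and 0.35 in the authors' deposited table. Polyamine enzymes and antizymes (8 genes) had a median of 0.06. Srm passed 1 there, at 1.26, and the rate-limiting enzyme gene Odc1 lay at -0.07 in the authors' deposited table. Selenoproteins, which read a stop codon as selenocysteine, had a median of -0.05 (17 of 18 listed genes measured) and 0 past 1, and the cytoplasmic aminoacyl-tRNA synthetases one of -0.09 (20 genes) with 0 past 1.

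The median TE of nuclear genes of the respiratory chain lay above 0 and that of mitochondrial genes below. The chain is built from subunits of both genomes, and mitochondrial ribosomes translate those of the mitochondrial genome. Complex I subunits encoded in the nucleus (37 genes) had the highest TE median of all pathway lists, 0.28, with 7 of 37 called higher, beside 2.85% of all genes, and 0 lower. The median was 0.19 for complexes II to IV (26 genes, 3 higher) and 0.04 for ATP synthase (18 genes, 2 higher). Beside 45.8% of all genes, 54 of these 81 lay above 0. The median of the 81 was 0.19, and 12 were higher and 0 lower. Their RNA median was -0.15 and their footprint median 0.08. These 81 genes are short, with a median span of 7131 bp from start to end. The fifth of all coding genes with the shortest spans, up to 9217 bp, had a median TE of 0.17, with 6.93% higher. The part of gene span in the medians of the respiratory lists was not tested. The ATP synthase median was -0.13 over genes whose values add up within 0.1, below 0 where the full list lay above.

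RNA below 0 with footprints near or above 0 was the common pattern of the leading subunits. Ndufa13 had -0.65 in RNA, 0.32 in footprints and 1.40 in TE, values that do not add up, and Ndufb7, at the intermembrane side of complex I, had -1.07, 0.32 and 1.32 in the authors' deposited table. The iron-sulphur subunit gene Ndufs7 had -1.17, 0.15 and 1.25 in the authors' deposited table. In complex III Uqcrq had -1.10, 0.35 and 1.42 and Uqcr11 had -0.99, 0.05 and 1.33, and in complex II the iron-sulphur subunit gene Sdhb had -0.55, 0.46 and 1.02 in the authors' deposited table. The ATP synthase genes Atp5g2, for the proton-carrying ring, and Atp5d, for the central stalk, had TE values of 1.71 and 1.48 in the authors' deposited table. Not all subunits took part: Ndufb3 lay at -0.66, the complex I core gene Ndufs1 at -0.52 and Cox7a2l at -0.71 in TE in the authors' deposited table.

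All 9 measured mitochondrially encoded subunits (of 13) had TE below 0, with a median of -0.73, while 1 passed -1. Their RNA median was 0.64 and their footprint median 0.05, so TE below 0 went with higher RNA at nearly equal footprints. The complex I gene mt-Nd6 was lowest, with 0.62 in RNA, -0.28 in footprints and -1.03 in TE in the authors' deposited table. The cytochrome oxidase gene mt-Co1 had 0.50, -0.25 and -0.84, and mt-Cytb, of complex III, had 0.69, -0.02 and -0.79 in the authors' deposited table. The highest was mt-Atp8 at -0.08 in the authors' deposited table. All 9 had higher TE values at 24 h, beside 5898 of all 12205 genes, and their median there was -0.09. The mitochondrial ribosomal RNAs, which have no reading frame, were looked up after these values were seen: mt-Rnr1 had 1.05 in RNA, 0.11 in footprints and -1.01 in TE, and mt-Rnr2 had 1.19, -0.50 and -1.77 in the authors' deposited table. The bearing of these RNAs, and of cycloheximide, on the values of the mitochondrial mRNAs was not tested.

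**Figure D3:**
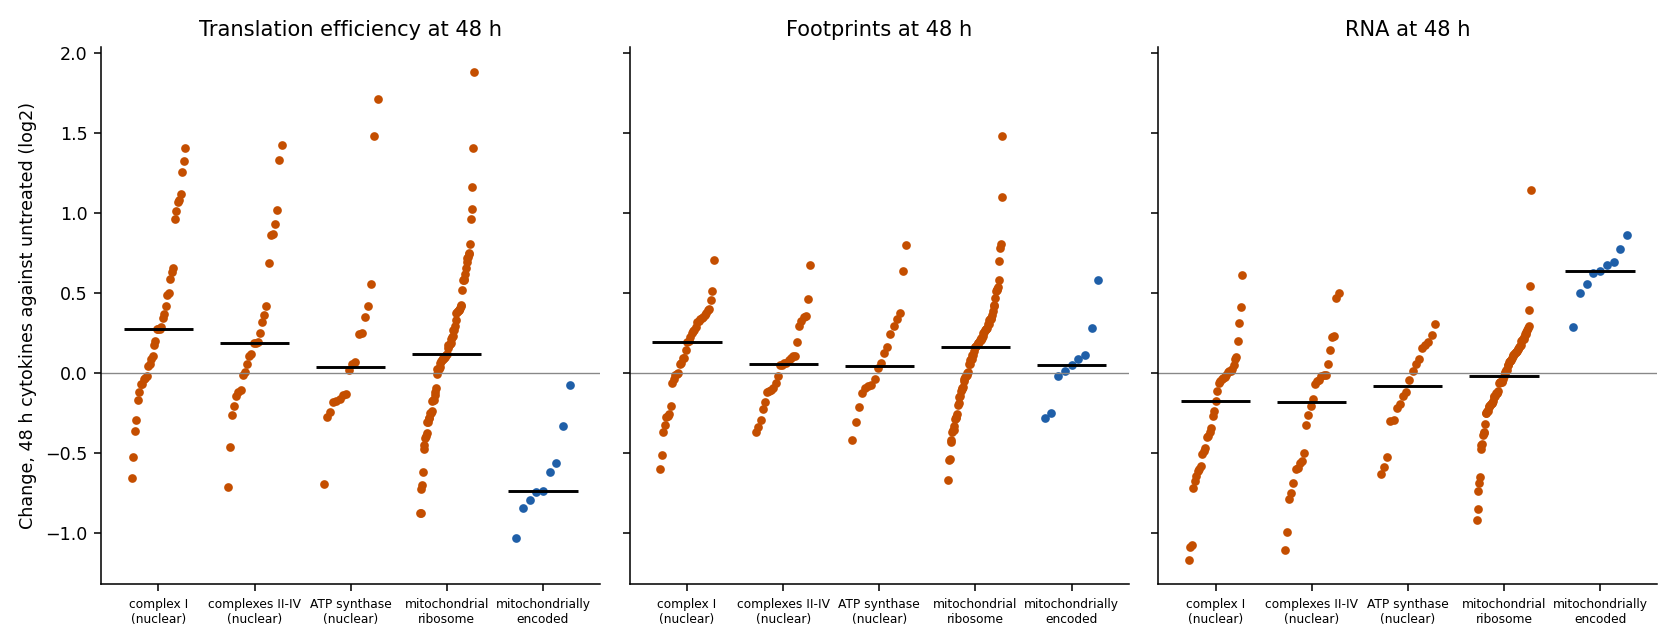
TE, footprint and RNA change at 48 h against untreated (log2) for nuclear-encoded subunits of complex I, complexes II to IV and ATP synthase, for mitochondrial ribosomal proteins (orange) and for mitochondrially encoded subunits (blue), with 1 point per gene and bars at the medians. The 9 mitochondrially encoded genes lie below 0 in TE and above 0 in RNA, and complex I lies at a median of 0.28 in TE.

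Proteins that build mitochondria lay between. The 75 mitochondrial ribosomal proteins had a median TE of 0.12, and 51 lay above 0, beside 45.8% of all genes. By at least 1, 4 were higher and 0 lower, beside 2.85% and 1.71% of all genes. The median span of this list was 7749 bp. The fifth of coding genes with the shortest spans, up to 9217 bp, had a median TE of 0.17, with 6.93% higher. The part of gene span in the medians of this paragraph was not tested. Mrps34 led at 1.88, with Mrpl54 at 1.40, and Mrpl30 was lowest at -0.87 in the authors' deposited table. The 3 values of Mrps34 did not add up, since the authors' deposited table has -0.92 in RNA and -0.14 in footprints for it. The 18 subunits of the import complexes TIM and TOM, with a median span of 7424 bp, had a median TE of 0.13. Among them 1 passed 1, Timm13, a chaperone of the intermembrane space, at 1.32 in the authors' deposited table. Assembly factors of the respiratory complexes, which are not part of them, had a median of 0.08 (33 of 38 listed) and 0 past 1. The copper chaperone gene Cox17 lay at -0.83 and Nubpl, which inserts iron-sulphur clusters, at 0.56 in the authors' deposited table. Proteasome subunits (31 genes) had a median of 0.13 with 0 past 1, and Sm and LSm splicing proteins one of -0.08 (14 of 15 listed) with 0 past 1.

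Inflammatory genes, with far higher RNA after the cytokines, were mixed in TE, and chemokines had the lowest median of the inflammatory lists. The 19 chemokines had medians of 6.33 in RNA, 5.58 in footprints and -0.51 in TE. In TE 7 of the 19 were called lower, beside 1.71% of all genes, and 1 was called higher. Cxcl9, an interferon-induced ligand of Cxcr3, had 9.04 in RNA, 1.82 in footprints and -5.19 in TE, values that do not add up, and Cxcl11, which RefSeq types as a transcribed pseudogene, had 9.44, 5.88 and -3.72 in the authors' deposited table. Ccl20 had 9.93, 5.82 and -3.30 in the authors' deposited table, which do not add up either. The list was not uniform. Cxcl2, a neutrophil attractant, had 8.79 in RNA and 10.56 in footprints, with 0.67 in TE, and Ccl17 had 3.35, 3.77 and 1.48 in the authors' deposited table. The values of neither gene add up. Ccl2 and Cxcl10 lay between, at -0.55 and -0.48 in TE in the authors' deposited table. With genes past 5 in any column left out, the chemokine median was 0.24, so its sign rests on the strongly induced members.

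Other secreted and interferon-related genes followed with smaller medians. Interferon-stimulated genes (51 of 54 listed) had a median TE of -0.29 with 2 higher and 5 lower, beside 2.85% and 1.71% of all genes. Below 0 lay 36 of the 51, beside 6619 of all 12205 genes. The guanylate-binding protein genes Gbp6 (-1.78) and Gbp4 (-1.55) and Mx1 (-1.67) were lowest, and the oligoadenylate synthetase gene Oas3 (1.39) and the exonuclease gene Isg20 (1.23) highest in the authors' deposited table. RefSeq types Mx1 as a transcribed pseudogene, and the authors' deposited table has 3.90 in RNA but 0.74 in footprints for it, which do not add up to its TE. Growth factors and cytokines (24 of 36 listed) had a median of 0.02 and 2 lower: Csf3, the granulocyte colony factor, at 9.07 in RNA, 6.57 in footprints and -2.15 in TE, and Il6 at 6.70, 5.00 and -1.72 in the authors' deposited table. The list for nitric oxide, itaconate and prostaglandin synthesis (12 of 16 listed) had a median of -0.26 and also 2 lower. These were Acod1, which makes itaconate, at 11.78, 8.00 and -2.40, and Nos2, the inducible nitric oxide synthase, at 10.00, 8.47 and -1.71 in the authors' deposited table.

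The median TE of NF-kB signalling genes lay above 0. The 27 subunit and feedback genes had a median of 0.20, and 18 lay above 0, beside 45.8% of all genes. By at least 1, 3 were higher and 0 lower, beside 2.85% and 1.71% of all genes. Map3k14 at 1.78, the inhibitor gene Nfkbib at 1.18 and Relb, the partner of the non-canonical pathway, at 1.08 passed 1, and Nfkbia, the main inhibitor, lay at -0.04 in the authors' deposited table. Over the genes whose values add up within 0.1 the median of the list was 0.03. MHC class I presentation (22 of 26 listed) had a median of -0.04, and in the authors' deposited table the immunoproteasome gene Psmb10 was highest at 1.13 and H2-Q6 lowest at -0.82. Complement (14 of 21 listed) had a median of -0.15. Its factor B gene Cfb had 5.42 in RNA and 1.34 in TE, while C3, the central component, had 6.38 in RNA and -0.19 in TE in the authors' deposited table. Factors that bind AU-rich elements or degrade such mRNAs (17 of 18 listed) had a median of -0.13 with 0 past 1, and Zfp36 (tristetraprolin) was highest at 0.78 in the authors' deposited table.

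**Figure D4:**
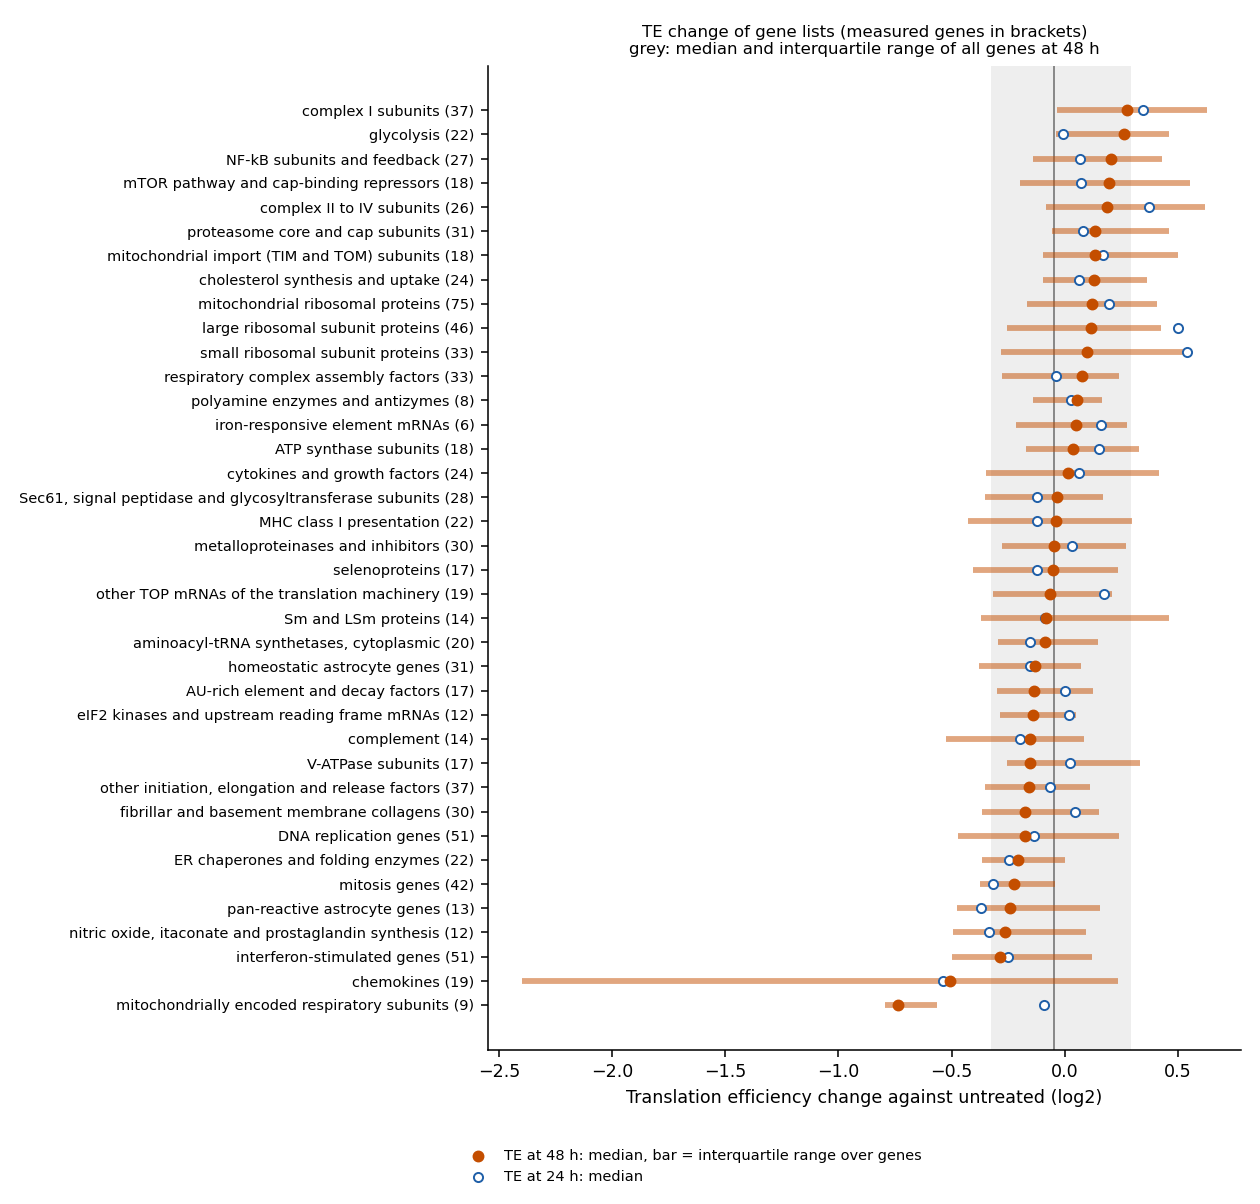
Median TE change against untreated (log2) of the pathway lists with at least 5 measured genes: filled circles with bars for the interquartile range over genes at 48 h, open circles for the median at 24 h, and a grey band for all genes at 48 h. Complex I is at the top at 0.28, chemokines (-0.51) and mitochondrially encoded subunits (-0.73) are at the bottom, and the ribosomal protein lists sit left of their 24 h circles.

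Pan-reactive astrocyte genes differed in RNA more than in TE. The 13 pan-reactive genes had medians of 2.44 in RNA and -0.24 in TE, with 0 past 1 in TE. Lcn2, a secreted iron-siderophore binder, had 7.72 in RNA, 7.40 in footprints and -0.41 in TE, and Gfap, the astrocyte intermediate filament, had -2.11, -2.12 and -0.07 in the authors' deposited table. Serpina3n lay at -0.51 and the small heat shock protein gene Hspb1 at 0.83 in TE in the authors' deposited table. Homeostatic astrocyte genes (31 of 32 listed) had a median of -0.13, with Slco1c1 the 1 gene past -1. The transcriptional regulator gene Id3 was highest at 0.94 in the authors' deposited table.

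Mitosis genes had medians below -1 in both RNA and footprints. These genes (42 of 44 listed) had medians of -1.45 in RNA, -1.54 in footprints and -0.23 in TE. Below 0 in TE lay 32 of the 42, beside 6619 of all 12205 genes. The centromere gene Cenpm passed 1, at 1.59, and the kinesin gene Kif4 was lowest at -0.94 in the authors' deposited table. Genes of DNA replication (51 of 53 listed) had medians of -0.54 in RNA and -0.35 in footprints, and a median TE of -0.18. With footprint minus RNA in place of TE the median was -0.06, and the mean of TE was -0.05. The authors' DNA replication set (34 genes) had a median TE of 0.01, so no direction is read here. In TE 3 of the 51 were higher, beside 2.85% of all genes. They were the ribonuclease subunit gene Rnaseh2c (1.17), the polymerase gene Pold1 (1.09) and Gins2 of the replicative helicase (1.06) in the authors' deposited table. Of replication-dependent histones 3 were measured, at -0.33 for Hist1h1c, -0.68 for Hist1h2bc and -1.42 for Hist1h2be in TE in the authors' deposited table.

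Lists of matrix and metabolic genes had TE medians from -0.17 to 0.26, beside -0.05 for all genes. Collagens (30 genes) had a median of -0.17 with 3 lower, beside 1.71% of all genes. Metalloproteinases with their inhibitors (30 genes) had a median of -0.05, also with 3 lower. Among these proteases the elastase gene Mmp12 had 5.55 in RNA, 2.21 in footprints and -2.68 in TE, and the gelatinase gene Mmp9 had 8.29, 7.14 and -1.43 in the authors' deposited table. The basement membrane gene Col4a4 had -4.35, -6.57 and -2.33, against -0.04 in TE at 24 h in the authors' deposited table. Glycolysis (22 genes) had a median of 0.26 at 48 h and -0.01 at 24 h with 0 past 1 at 48 h, and was led by Tpi1 (0.90) and Aldoa (0.89) in the authors' deposited table. Cholesterol synthesis and uptake (24 genes) had a median of 0.13 with 2 higher, beside 2.85% of all genes. These 2 were the mevalonate pathway genes Mvd (1.03) and Mvk (1.02) in the authors' deposited table.

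The remaining lists held 0 genes past 1. V-ATPase subunits (17 genes), which acidify lysosomes, had a median of -0.15. Chaperones and folding enzymes of the endoplasmic reticulum (22 genes) had one of -0.21, with 16 below 0, beside 6619 of all 12205 genes. The central chaperone gene Hspa5 (BiP) was lowest at -0.69 in the authors' deposited table. Sec61, signal peptidase and glycosyltransferase subunits (28 of 30 listed), which bring proteins into the endoplasmic reticulum, had a median of -0.03.

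The authors' deposited table of p-values gives 5 gene sets, and the test behind these was not given in the sources used here. For TE at 48 h that table, the authors' deposited table, lists 1e-07 for oxidative phosphorylation and 0.0001 for assembly of the small ribosomal subunit, both read as higher. It lists 0.16 for cytokine activity, read as lower, 0.27 for apoptosis and 0.98 for DNA replication in the authors' deposited table. The study chose these sets on the same samples, so they are not independent evidence of a direction. The oxidative phosphorylation set (75 genes) had 11 higher and 0 lower around a median TE of 0.22. In the cytokine activity set (74 genes) 3 were higher and 10 lower, around a median of -0.06. Over all genes 2.85% were higher and 1.71% lower.

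The small subunit assembly set was not typical of small subunit proteins. Its 16 genes had a median TE of 0.57, with 13 above 0 and 3 higher, beside 45.8% and 2.85% of all genes. The 9 small subunit proteins within it had a median of 0.61, and the 24 small subunit proteins outside it one of -0.13, with 10 above 0. At 24 h the medians of these same genes were 0.81 inside and 0.42 outside the set. The 7 other genes of the set had a median of 0.39 at 48 h.

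TE also followed where genes lie and how long they are, features taken from RefSeq on GRCm38.p6 and chosen after values were seen. Over 11967 protein-coding genes, Spearman's rho of TE with the number of other coding genes in a window of 1000000 bp was 0.378, beside -0.151 for RNA and 0.0966 for footprints. In 5 equal bins of that density, sparsest first, the median TE was -0.23, -0.17, -0.07, 0.07 and 0.27, and 6.47% of genes in the densest bin were called higher, against 0.877% in the sparsest. For gene span, from start to end, rho was -0.283 for TE, 0.0167 for RNA and -0.179 for footprints. Of 5 equal bins of span, the one of genes up to 9217 bp had a median TE of 0.17 and the one from 79942 bp on had -0.20. These correlations are across genes, which share libraries and neighbourhoods. The median span was 25830 bp over all genes and 2693 bp over small subunit ribosomal proteins.

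**Figure D5:**
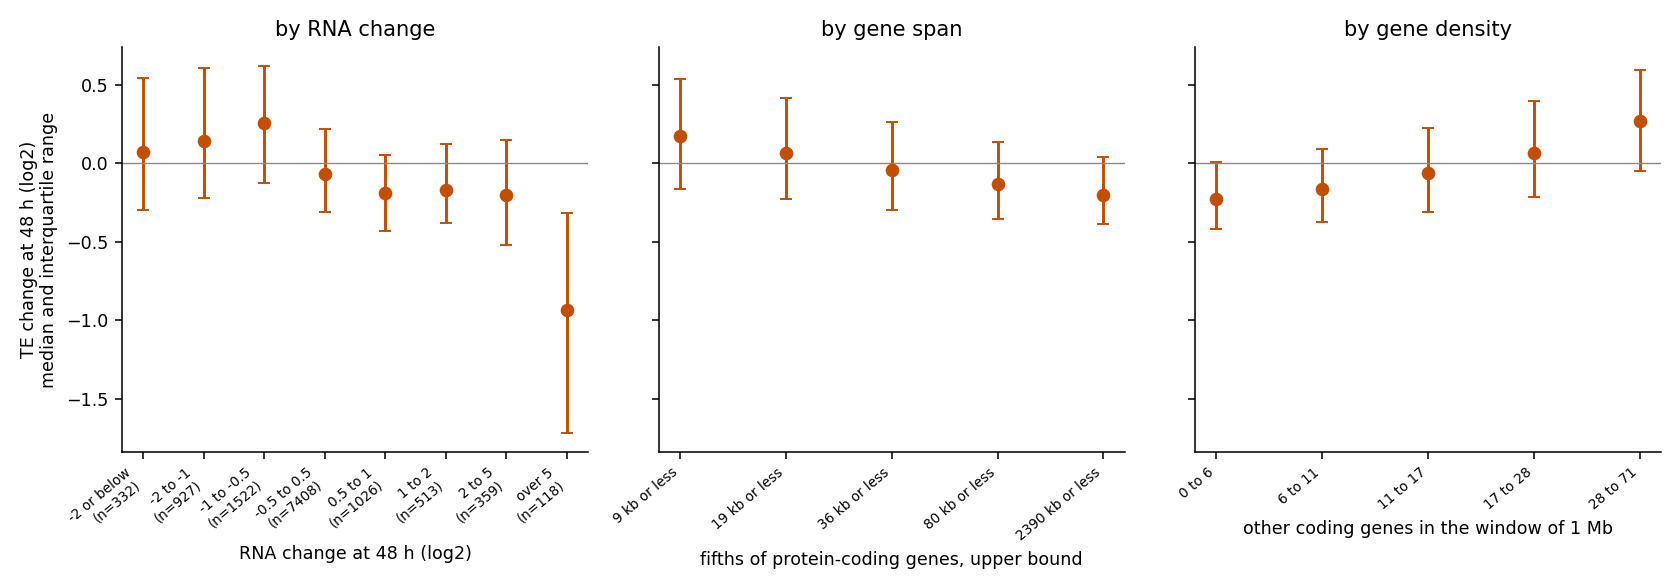
Median TE change at 48 h against untreated (log2, bars for the interquartile range over genes) by RNA change, by 5 equal bins of gene span and by 5 equal bins of the number of coding genes in a window of 1000000 bp. TE is lowest where RNA lies over 5 (-0.94), descends with span (0.17 to -0.20) and ascends with gene density (-0.23 to 0.27).

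Markers of other cell types were measured in part. Of 18 microglia and macrophage markers 4 were in the table, with medians of 0.33 in RNA and -0.13 in TE. In RNA 1 of the 4 was higher, beside 8.11% of all genes. Adgre1, the lowest in TE, had 7.55 in RNA, 4.62 in footprints and -2.08 in TE in the authors' deposited table. Tmem119, the highest, lay at 1.12 in TE in the authors' deposited table. Median TE was 0.30 for oligodendrocyte lineage markers (7 of 15 listed), 0.14 for neuron markers (6 of 14), -0.20 for endothelial and pericyte markers (8 of 13) and -0.35 for fibroblast and meningeal markers (12 of 12, 11 below 0). Only Tubb3, a neuronal tubulin gene, passed 1 among these, at 1.15 in the authors' deposited table. Summed levels of these lists cannot be had from fold changes, and their part in the TE values was not tested.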

How the data were processed

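RNA and ribosome footprints (cut from a gel, from an RNase I digest) were sequenced per the labels' protocols. The labels name both a total RNA kit and polyA RNA, which was not resolved. The submitters' processing notes name TopHat2, featureCounts and the mm10 build. Versions, normalization, the combination of batches and the fold change method are not given in the sources used here. Per the file headers, log2 fold changes against untreated cells were what the authors deposited, with p-values for 5 gene sets. The authors deposited these p-values as signed scores, where minus was read as lower. Depth, and the precision it gives, is unknown.

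Here medians, counts at a limit of 1 and Spearman's rho were computed without a filter (Python 3.11.15, pandas 2.3.3, scipy 1.17.1, figures with matplotlib 3.10.9). No test was possible. Members and the 44 gene lists (39 of pathways, 5 of markers) were chosen with earlier results of these data known. Of the 12205 identifiers 12201 matched the table of gene names and 12148 RefSeq (GRCm38.p6), and 31 symbols were replaced, 19 of which were dates. TE by protein length was planned but not computed, for want of protein lengths in the sources used here. Gene span and density were described instead and do not measure protein length.

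The genes named are the 10 highest and 10 lowest in TE with values that add up within 0.1, the 5 highest and 5 lowest of these with RNA within 0.2 of 0, 3 at each end of each list of at least 5 genes, those on the authors' sheet of examples, and 17 chosen by name. Ddit3, Ppp1r15a, Adgre1, Tmem119, histones, mitochondrial ribosomal RNAs and the genes of the printed starts fell outside this and were chosen after their values were seen. Counting and the sequence search were checked on simulated data. Some items are not reported here.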

Additional observations from a re-analysis of the deposited data

How the results depend on the processing

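Values were recomputed with footprint minus RNA in place of TE, over genes within 0.1 of that difference, without genes past 5 in any column, centred on the median, at limits of 1.5-fold and 4-fold, and with list means, lists without shared members and other tolerances. Of 293 such values for 56 results, 79 for main results and 171 for single lists stayed close to the reported value. Close means within 0.1 for a median and within 1.5-fold for a count. Another 40 moved, and 3 list medians at least 0.1 from 0 changed sign. Medians nearer to 0 can fall on either side of it and are not read as a direction. The sources of the moves were not tested, apart from the smaller number of genes or the other limit in each setting.

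Higher genes numbered 173 within 0.1 of the difference, 1385 at 1.5-fold and 18 at 4-fold, against 348, and lower genes 52, 991 and 40, against 209. In the same order, genes higher in TE with lower RNA numbered 60, 329 and 8, against 98. Those lower in TE with higher RNA numbered 34, 208 and 29, against 90, and also 34 without genes past 5. Among genes over 5 in RNA, 23 were lower within 0.1 of the difference and 26 at 4-fold, against 55. The median of the small subunit was 0.22 within 0.1 of the difference. Chemokines had 0.24 without genes past 5 and a mean of -1.09. V-ATPase subunits had a mean of 0.017, and endothelial markers a median of 0.24 within 0.1 of the difference. Tolerances of 0.05 and 0.25 gave 40.6% and 94.0% of genes.

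No paired analysis was possible because the columns carry 1 value per comparison and none per batch. Leaving out a batch could not be done for the same reason. Depth per library is unknown, so what it limits could not be stated. Gene span, gene density and the count among genes over 5 in RNA were added after seeing the data.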

Other observations

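Non-coding genes in the table also had TE values, although footprints on them do not measure protein synthesis. The 181 genes matched to a type other than protein-coding had a median TE of -0.16 at 48 h. By at least 1, 7 were higher and 19 lower, beside 2.85% and 1.71% of all genes. Of the 181, 145 were long non-coding RNAs, with 2 higher and 12 lower, and 2 were small nucleolar RNAs, both higher. By chromosome, median TE ran from 0.10 on chromosomes 7 and 15 to -0.24 on X, and the median number of neighbouring coding genes was 24 on chromosome 7, 17 on chromosome 15 and 9 on X. GC content of the start window had a Spearman's rho of 0.0903 with TE over 9609 coding genes.

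In 186 genes TE at 48 h differed from footprint minus RNA by over 0.5, chosen here after their values were seen. Pglyrp3, a peptidoglycan recognition protein gene, had 8.64 in RNA and 0.37 in footprints but -1.29 in TE in the authors' deposited table. Tmem132e had 0.56 in RNA, 7.08 in footprints and 2.63 in TE, and Mrto4, a ribosome assembly factor gene, had 0.23, -0.37 and -3.56 in the authors' deposited table.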
